A study of Mus musculus with 14 samples.

Results

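The change from germinal vesicle (GV) to ovulated oocytes was followed in mice whose oocytes lack Clpx, using the 7 knockout libraries of the 14 libraries in the series. The members were chosen by genotype and stage: 4 libraries of GV oocytes and 3 libraries of ovulated oocytes, all from Clpxfl/fl; Zp3-Cre mice and labelled as conditional knockout (CKO). The other 7 libraries, 4 of GV and 3 of ovulated oocytes labelled WT, came from Clpxfl/fl mice, so every animal of the series carried the floxed alleles and the WT animals lacked the Cre. No age, hormone treatment, or number of oocytes or animals per library is given in the sources used here. Zp3-Cre is driven by the promoter of a zona pellucida gene, so recombination is directed to growing oocytes and not to the surrounding follicle cells. A Cre control without floxed alleles was not analysed here.

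A GV oocyte is a fully grown oocyte held in meiotic prophase by cyclic AMP made inside the cell. A hormonal surge lowers cyclic AMP, CDK1 with cyclin B becomes active, the nuclear envelope breaks down, and the oocyte divides its chromosomes and arrests again in metaphase II, the state in which it is ovulated. Transcription is largely silent over this time, so the mRNA pool changes mainly by cytoplasmic polyadenylation, translation and decay of stored maternal RNA. CLPX is the unfoldase that feeds proteins to the peptidase CLPP in the mitochondrial matrix. SMART-Seq2, the method used, primes cDNA from the poly(A) tail, so a loss of RNA and a shortening of its tail cannot be told apart, nor can synthesis be told apart from tail lengthening. Likewise, fewer copies per oocyte cannot be told apart from a larger total of other RNA, since all values are relative to the library.

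Total counts were between 25086506 and 28471453 over the 14 libraries. In CKO oocytes the 10 most abundant genes took 16.8 to 25.6% of counts in the GV libraries and 6.99 to 8.9% in the ovulated libraries. These ranges do not overlap, and the exact permutation p of 0.0571 (two-sided) is the smallest that 4 against 3 libraries allow. Genes with at least 1 count numbered 14880 ± 243 (SD, n = 4) in GV and 14242 ± 273 (SD, n = 3) in ovulated libraries, a difference of -638 with the same exact p of 0.0571. The difference was -25.2 for genes with at least 10 counts. Each stage was deposited as its own table, so stage and table cannot be told apart.

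Clpx itself checked the labels. On the scale of the 14-library fit it lay between 39.6 and 58.1 CPM (read counts relative to the library size after TMM scaling) in GV WT and between 17 and 19.1 CPM in ovulated WT libraries. In the CKO libraries it lay between 0.676 and 1.44 CPM in GV and between 0.269 and 0.575 CPM in ovulated oocytes. Within CKO oocytes, on the scale of the 7 libraries, Clpx was at 0.616, 0.883, 1.28 and 1.44 CPM in GV and at 0.458, 0.607 and 0.272 CPM in ovulated oocytes. The groups did not overlap, but the log2 change of -1.22 did not pass (edgeR adjusted p = 0.074), while it passed in the fit of 14 libraries (adjusted p = 0.00398). Clpp, the peptidase partner, fell from 11.1 ± 2.94 (SD, n = 4) to 0.782 ± 0.653 CPM (SD, n = 3), a log2 change of -3.81 (edgeR adjusted p = 0.000674).

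The stage change reached many genes in both directions. Of 12473 genes listed in both tables and tested in the CKO libraries with edgeR's quasi-likelihood test, 3611 rose (29% of genes tested) and 3539 fell (28.4%) from GV to ovulated oocytes. The call is a Benjamini-Hochberg adjusted p below 0.05. Library totals in place of TMM scaling moved the median log2 change of all genes from -0.02 to 0.47 and gave 4470 genes that rose and 2127 that fell, so that the share of calls that rose went from 50.5% to 67.8%. With limma on log2(FPKM + 1) the share was 65.4%. With TMM scaling the falls were the larger changes: the median log2 change was -2 among genes that fell and 1.5 among genes that rose. With this scaling 1765 genes fell at least 4-fold against 766 that rose at least 4-fold. These sizes depend on the scaling and were not computed with library totals, where the median of all genes was 0.47 and not -0.02. For 7595 genes (60.9% of those tested) the CPM ranges of both stages did not overlap.

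The libraries of a stage were alike in most genes, with Pearson correlations of log2 CPM from 0.95 to 0.975 over 6 pairs of GV CKO libraries and from 0.94 to 0.966 over 3 pairs of ovulated CKO libraries. Between stages the correlation ran from 0.731 to 0.89 over 12 pairs. Ovulated CKO replicate 3 stood farthest from the GV libraries, with a mean correlation of 0.77 against 0.862 and 0.841 for replicates 1 and 2. Without it 2905 genes rose and 3556 fell. Of 210 named genes that passed, the fold change moved by over 1.5 times in 16 without ovulated replicate 1, in 9 without ovulated replicate 2 and in 0 without ovulated replicate 3, and in 0 to 5 without single GV libraries. Some results that change with replicate 3 are given with and without it.

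The largest rise in CKO oocytes among the genes named by size of change was that of Ddit4, a stress-induced inhibitor of TORC1. It was at 0.539, 0.372, 0.277 and 0.221 CPM in the GV libraries and at 9.32, 20.3 and 6.23 CPM in the ovulated libraries. All 3 ovulated libraries were far above all 4 GV libraries, and the log2 change was 5.05 with a standard error (SE) of 0.51 (edgeR adjusted p = 0.000138). Bcl2l2, which encodes the survival protein BCL-W, rose from 5.38 ± 2.54 to 64.1 ± 15.3 CPM, an 11.9-fold difference of means. Socs7, a member of the suppressors of cytokine signalling, was at 36.1, 15.3, 14.9 and 18 CPM in GV and at 185, 252 and 245 CPM in ovulated oocytes. Its groups were well apart, although GV replicate 1 was higher than the other 3. Ppard, a nuclear receptor that controls fatty acid use, rose from 1.09 ± 0.909 to 12.9 ± 4.21 CPM. Atf6b, an endoplasmic reticulum stress transcription factor, rose from 1.39 ± 0.678 to 13.7 ± 2.85 CPM. Rpia, the pentose phosphate enzyme ribose 5-phosphate isomerase, rose from 2.13 ± 1.64 to 30.6 ± 6.41 CPM. The other 9 of the 15 largest rises were Lbx1, Ttyh3, Ubqln2, Llgl2, Zc3h7b, Insm1, Tmed9, Sbk1 and Tulp3, with log2 changes from 3.28 (Tulp3) to 3.51 (Lbx1).

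Among the largest falls were some of the most abundant transcripts of the GV oocyte. Upp1, uridine phosphorylase, was at 501, 488, 477 and 673 CPM in GV CKO libraries and at 9.47, 3 and 2.08 CPM in ovulated CKO libraries. This was a 110-fold difference of means and a log2 change of -6.78 with an SE of 0.593 (edgeR adjusted p = 0.000117). Hddc3, which encodes a small nucleotide phosphohydrolase, was at 31900, 40500, 19300 and 53600 CPM in GV and at 1290, 953 and 830 CPM in ovulated oocytes. Clec16a, an autophagy regulator, was the most abundant gene of GV CKO oocytes by FPKM (mean 20600) and fell from 85200 ± 38100 to 3130 ± 453 CPM, a log2 change of -4.77. Tpi1, the glycolytic enzyme triosephosphate isomerase, fell from 104 ± 29.2 to 3.6 ± 2.37 CPM, and Eif3l, a subunit of the initiation factor eIF3, from 157 ± 42.5 to 4.25 ± 1.5 CPM. Ckb, brain creatine kinase, fell from 130 ± 91.1 to 4.22 ± 2.82 CPM. The other 10 of the 15 largest falls were Tuba1a, Slc38a6, Tnr, Cpsf4l, Stx5a, Trim14, Zfp967, Fam151a, Yif1b and Zfp970. In 3 of them GV replicate 4 was the highest library by far: without it the log2 change went from -6.34 to -5.16 in Tuba1a (and to -8.65 without ovulated CKO replicate 2), from -5.9 to -4.6 in Slc38a6 and from -5.14 to -3.28 in Trim14. Trim14 did not pass without ovulated CKO replicate 3 (adjusted p = 0.0672).

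**Figure D1:**
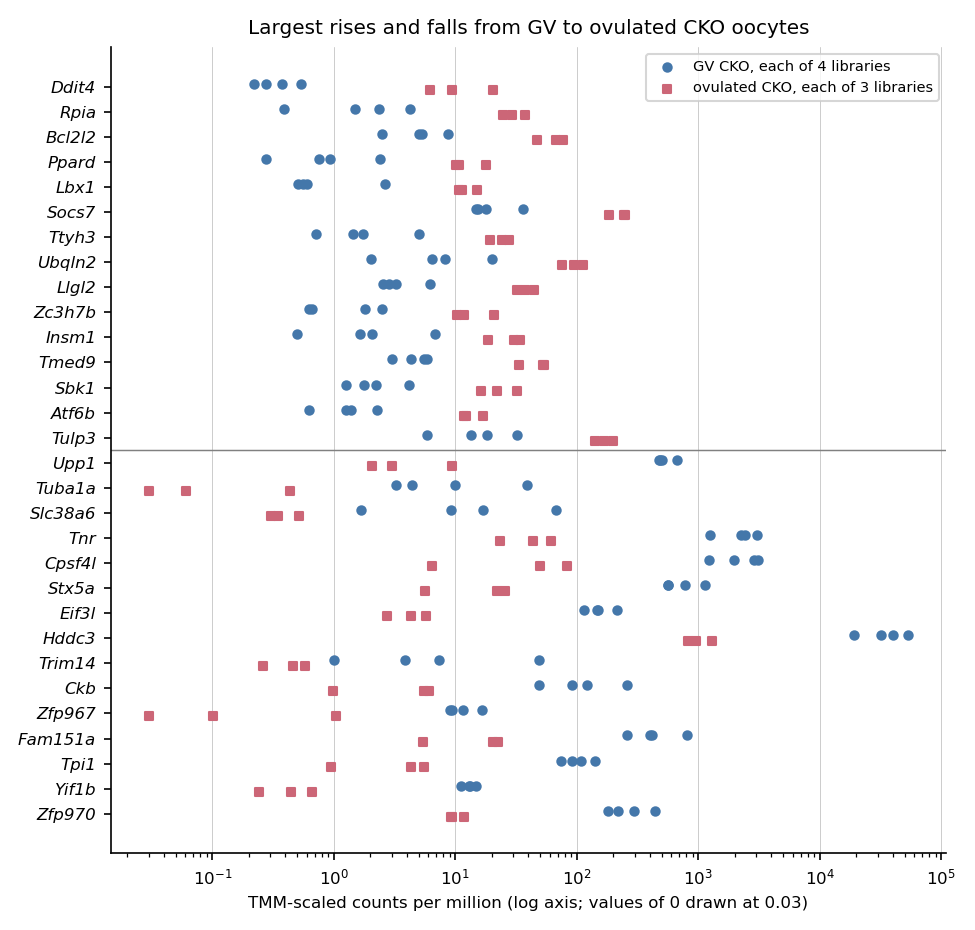
TMM-scaled CPM (log axis) of the 15 genes with the largest rise (upper block) and the 15 with the largest fall (lower block), 1 point per library, circles for 4 GV and squares for 3 ovulated CKO libraries. Stages do not overlap in any of the 30 genes, as the rule for naming them required; Upp1 went from 477 or more to 9.47 or less.

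Some other abundant transcripts of the oocyte did not pass the test, while others fell, such as Ubb (log2 change -2.36, edgeR adjusted p = 0.00205). By FPKM, which is comparable between genes, Omt2b (mean 11000), Pttg1 (9010), Dppa3 (8250), Obox2 (8230) and H1f8 (8050) led in ovulated CKO oocytes. Dppa3, a maternal chromatin protector, was at 4190, 4390, 3230 and 4190 CPM in GV and at 4400, 3330 and 4310 CPM in ovulated oocytes, and its groups overlapped. H1f8, the oocyte linker histone, had a log2 change of -0.16 (edgeR adjusted p = 0.726) and Obox2 one of -0.64 (adjusted p = 0.21). Pttg1, which encodes securin, rose from 2010 ± 295 to 3790 ± 634 CPM (edgeR adjusted p = 0.0171), but did not pass without ovulated CKO replicate 1 (0.0617) or replicate 3 (0.0994).

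Genes that rose and genes that fell differed in the end of their mRNA. Cytoplasmic polyadenylation elements, bound by CPEB proteins, lie near the 3′ end of maternal mRNAs whose tails are lengthened during maturation. The 3′ UTR of 1 GENCODE M21 transcript per gene was searched on the transcript strand for TTTTAT or TTTTAAT, which do not contain one another, in its last 100 bases. This was possible for 11510 genes (92.3% of those tested). The element was present in 20% of all these genes, in 29.7% of genes that rose and in 11.1% of genes that fell. It was present in 31.2% of genes that rose at least 4-fold and in 8.59% of genes that fell at least 4-fold. Read the other way, 45.2% of 2301 genes with the element rose and 15% fell, against 26.7% and 30% of 9209 genes without it. A Pumilio element (TGTANATA) was in 6.55% of genes that rose, 3.76% of genes that fell and 5.03% of all.

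To show what such ends look like, the 30 bases around the element are printed in transcript direction for 6 of the 15 largest rises and for 3 genes that fell although they hold the element. Capitals mark the element, and positions are those of mm10 (GRCm38).
Bcl2l2, rose, chr14:54888153-54888182, plus strand: agttcatttgacTTTTATttttgtgtaata
Socs7, rose, chr11:97398453-97398482, plus strand: tttgtatctcctTTTTATgattgctgtacc
Ppard, rose, chr17:28301394-28301423, plus strand: gcttcccgtgtTTTTAATataaatagtgta
Zc3h7b, rose, chr15:81796202-81796231, plus strand: taatgtagatgTTTTAATaacaatttttgt
Llgl2, rose, chr11:115855736-115855765, plus strand: taaaactgagtTTTTAATaaacaccttgtt
Atf6b, rose, chr17:34655020-34655049, plus strand: tgcgtatcttttTTTTATtattattaaata
Oog1, fell, chr12:87608779-87608808, plus strand: atagaagcaccaTTTTATgagactggccca
Fh1, fell, chr1:175600374-175600403, minus strand: gcaaaataaagtttaTTTTATaaaagaaaa
Fbxo5, fell, chr10:5799226-5799255, minus strand: aatgtgagttttTTTTATatctgtgaatac
In these 9 genes the element ended between 9 bases (Fh1) and 78 bases (Fbxo5) before the transcript end. A match is a description of the letters and not a measured binding site.

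Length moved with the stage change as well. The median 3′ UTR was 1542 bases long in genes that rose, 662 bases in genes that fell and 1058 bases in all, and the median coding sequence was 1893 bases against 1092 bases. With the genes split into 5 classes from the shortest to the longest 3′ UTRs, the share of genes that rose went through 16.2, 22.6, 31.1, 38.6 and 43.5%, and the share that fell through 41.6, 33.3, 25.6, 18.5 and 16.1%. In each class a larger share rose with the element than without it, from 36.0% against 12.1% in the shortest class to 50.6% against 41.5% in the longest. The same held in each of 5 classes of AT content of the 100-base window, from 34.3% against 15.9% in the lowest to 51.2% against 40.9% in the highest. Across genes, which are not independent replicates, Spearman's rho of the log2 change was 0.28 with 3′ UTR length and 0.31 with coding length. The part of cDNA amplification or counting in this relation was not tested.

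**Figure D2:**
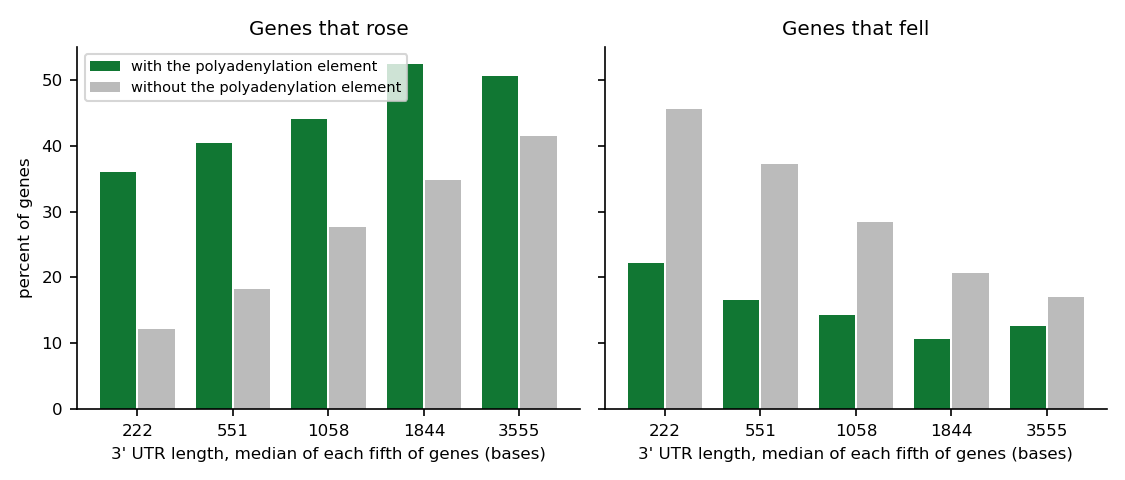
Share of genes that rose (left) and fell (right) from GV to ovulated CKO oocytes, in percent, by class of 3′ UTR length (5 classes, median bases on the horizontal axis), for genes with (green) and without (grey) the polyadenylation element in the last 100 bases. In the shortest class 36.0% of genes with the element and 12.1% of genes without it rose.

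Gene lists were compared by counts of members that passed, to be read against 29% rising and 28.4% falling among all genes, and by medians against -0.02 for all genes. Of 36 lists, 11 had a median above 0, and 16 did so with library totals. Values with library totals are to be read against 4470 rising and 2127 falling of 12473 genes, and against a median of 0.47.

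**Figure D3:**
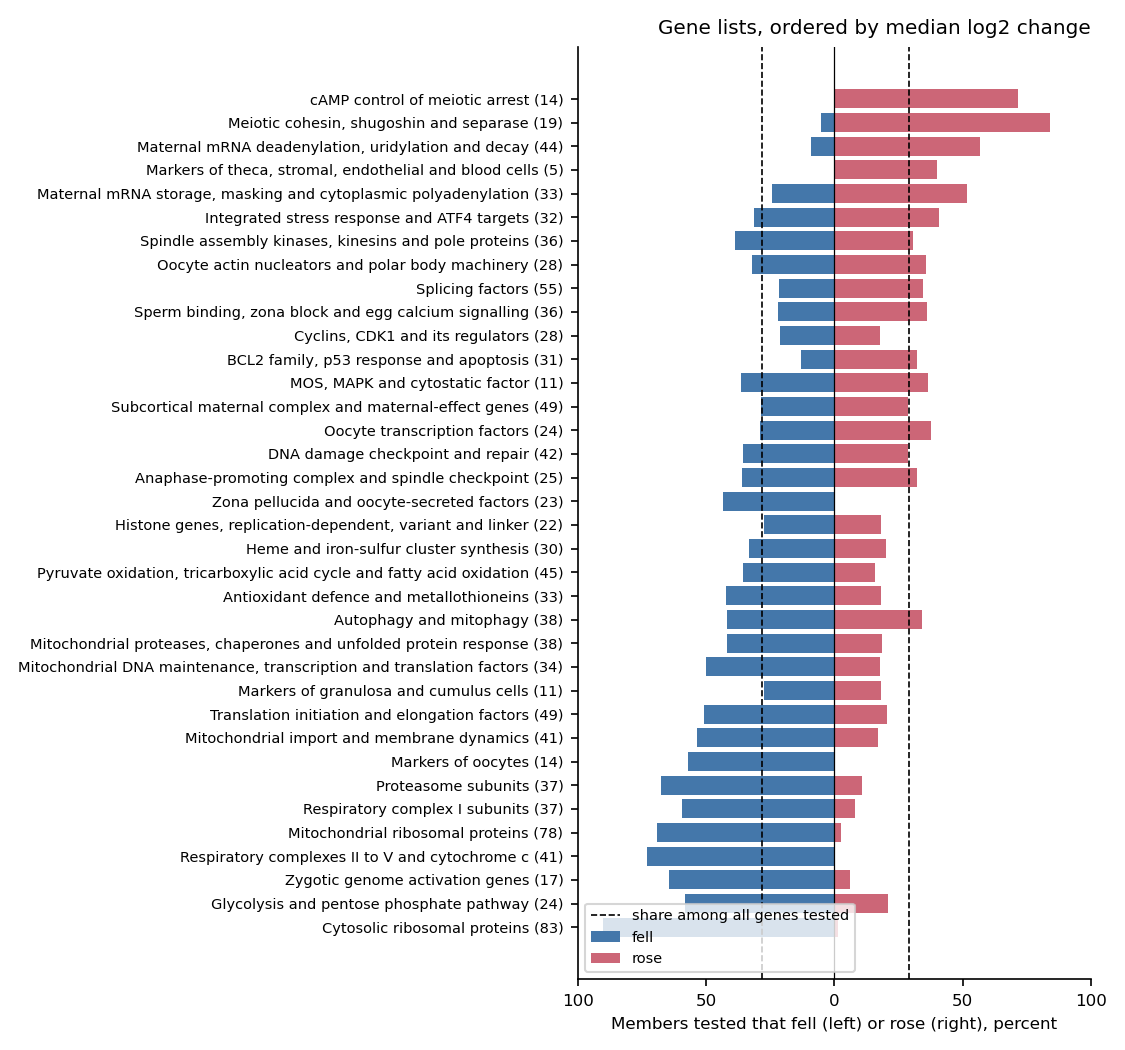
Percent of tested members that fell (left) or rose (right) in each of 36 gene lists, with the number tested in brackets, ordered by median log2 change; dashed lines mark the share of all genes tested (28.4% fell, 29% rose). Cytosolic ribosomal proteins are at the lower end with 90.4% falling, and the cAMP and cohesin lists are at the upper end.

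Genes of the cyclic AMP control of meiotic arrest mostly rose, in a list that mixes genes that hold the arrest with genes that end it. Of these genes 10 of 14 rose, none fell, and the median log2 change was 1.54. Prkar2a, a regulatory subunit of protein kinase A, was at 43.8, 33.2, 44.1 and 24.6 CPM in GV and at 170, 192 and 241 CPM in ovulated oocytes. Its log2 change of 2.46 (SE 0.273) passed with an edgeR adjusted p of 0.000143. Prkaca, a catalytic subunit, rose from 5.67 ± 0.201 to 24.7 ± 6.99 CPM and Prkacb from 3.21 ± 0.564 to 12.4 ± 0.867 CPM. Pde3a, the phosphodiesterase that breaks down cyclic AMP at the resumption of meiosis, rose from 62.7 ± 24.2 to 227 ± 22.5 CPM. Gpr3, the receptor that keeps cyclic AMP high, had a log2 change of 0.51 that did not pass.

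Cohesin and its regulators, which hold sister chromatids together and release them at anaphase, mostly rose: 16 of 19 rose and 1 fell, with a median of 1.5. Sgo2a, a shugoshin that protects centromeric cohesin, was at 32.8, 33.7, 34.7 and 25.3 CPM in GV and at 119, 103 and 124 CPM in ovulated oocytes, with no overlap (log2 change 1.87, SE 0.226, edgeR adjusted p = 0.000186). The cohesin core subunit Smc3 rose from 133 ± 25.9 to 438 ± 42.7 CPM and Espl1, which encodes separase, from 34.9 ± 8.77 to 120 ± 9.77 CPM. The member that fell was the meiotic subunit Stag3, from 3.2 ± 1.11 to 1.13 ± 0.702 CPM with overlapping groups, and its call was lost with library totals (edgeR adjusted p = 0.186) and without GV replicate 2 (0.0654), 3 (0.0519) or 4 (0.0626).

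The core of the meiotic engine did not move as a block. Of 28 cyclin and CDK1 genes, 5 rose and 6 fell, with a median of 0.11. With library totals 10 rose and 5 fell, with a median of 0.56. The falls numbered 6 to 9 when single libraries were left out, but the rises and the median moved: the median was -0.01 without GV replicate 4 or ovulated replicate 1, and 1 gene rose without GV replicate 3, 2 without ovulated replicate 2 or 3 and 3 without GV replicate 2 or ovulated replicate 1. Cdk1 was at 161, 199, 158 and 217 CPM in GV and at 56.2, 55.6 and 46 CPM in ovulated oocytes, a log2 change of -1.81 (edgeR adjusted p = 0.000246). Ccnb1, cyclin B1, was at 1830, 3480, 2710 and 4210 CPM and then at 2060, 1530 and 2470 CPM, so its groups overlapped and it did not pass. Cdk7, a kinase that activates CDK1, fell from 226 ± 13.7 to 70.4 ± 18.2 CPM, and cyclin D3, Ccnd3, rose from 8.41 ± 3.75 to 22.1 ± 4.19 CPM.

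The MOS and cytostatic factor genes, which keep the egg in metaphase II, showed 4 rises and 4 falls among 11. The rises numbered 2 without GV replicate 3 or ovulated replicate 1 or 2. The median was -0.14, and 0.36 with library totals, against 0.47 for all genes with that scaling. Map2k1, the MAPK kinase, rose from 170 ± 29.7 to 478 ± 95.7 CPM. Fbxo43, which encodes EMI2, the inhibitor of the anaphase-promoting complex in eggs, was at 117, 98.7, 103 and 153 CPM in GV and at 229, 225 and 266 CPM in ovulated oocytes. Its paralogue Fbxo5, which encodes EMI1, fell from 164 ± 38.6 to 68 ± 7.6 CPM. The values of Mos itself overlapped, at 995 ± 332 and 635 ± 99.6 CPM, and its change did not pass.

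In the anaphase-promoting complex and spindle checkpoint list 8 of 25 rose and 9 fell, against 9 and 4 with library totals. Its largest subunit Anapc1 rose from 36.5 ± 13.7 to 127 ± 5.99 CPM and the checkpoint kinase Bub1b from 830 ± 238 to 1860 ± 223 CPM. The kinetochore protein Zwint fell from 97.9 ± 11.9 to 22 ± 8.11 CPM and the checkpoint kinase Ttk from 237 ± 49.4 to 78.5 ± 20.1 CPM.

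Spindle genes moved both ways, with 11 of 36 rising (30.6%, against 29% of all genes) and 14 falling (38.9%, against 28.4%). Ckap5, a microtubule polymerase, was at 78.5, 76.6, 70.2 and 30.9 CPM in GV and at 222, 248 and 285 CPM in ovulated oocytes. Rcc1, the exchange factor that makes RanGTP on chromatin, rose from 7.58 ± 3.5 to 34.7 ± 1.12 CPM. The tubulins Tubb4b (2700 ± 1530 to 105 ± 53.4 CPM) and Tuba4a (460 ± 211 to 17.9 ± 11.9 CPM) fell, as did the spindle proteins Tacc3 (2080 ± 901 to 205 ± 63.5 CPM) and Aurka (503 ± 97.5 to 153 ± 17.8 CPM). With library totals 19 spindle genes rose and 12 fell.

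Actin genes also moved both ways, with 10 of 28 rising (35.7%) and 9 falling (32.1%), not far from the shares of all genes. With library totals 14 rose and 4 fell. Wasl, which activates actin branching, rose from 56.1 ± 20.4 to 253 ± 40.8 CPM and the ARP2/3 subunit Arpc1b from 13.2 ± 5.34 to 94.1 ± 13.5 CPM. The monomer-binding proteins Pfn1 (206 ± 31.7 to 52.8 ± 9.35 CPM) and Cfl1 (648 ± 135 to 122 ± 65.6 CPM) and the actin gene Actg1 (285 ± 151 to 44 ± 22.4 CPM) fell.

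The machinery that decays maternal mRNA rose in a larger share than all genes: 25 of 44 genes rose and 4 fell (2 without GV replicate 2), with a median of 1.08. Pan2, a deadenylase, was at 68.7, 56.9, 50.6 and 53.5 CPM in GV and at 198, 231 and 257 CPM in ovulated oocytes (log2 change 1.99, SE 0.228, edgeR adjusted p = 0.000158). Cnot6l, the deadenylase subunit of CCR4-NOT in oocytes, rose from 208 ± 97.7 to 779 ± 25.3 CPM, Tut7, a terminal uridylyltransferase, from 8.31 ± 2.36 to 38.1 ± 4.27 CPM, and the decapping factor Dcp1a from 472 ± 104 to 1350 ± 203 CPM. Btg4, the adaptor that brings CCR4-NOT to maternal mRNA, was already at 4570 ± 805 CPM in GV and at 4700 ± 1220 CPM in ovulated oocytes, with overlapping groups. Cnot10, another subunit of CCR4-NOT, fell from 40 ± 7.22 to 4.2 ± 2.52 CPM.

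Genes of mRNA storage and polyadenylation also rose more often than they fell, 17 against 8 of 33, with a median of 0.92. Cpeb4, a later-acting CPEB protein, was at 19, 8.97, 11.4 and 3.54 CPM in GV and at 73.9, 63 and 89.9 CPM in ovulated oocytes. Cpeb1, the CPEB protein of the GV oocyte, went the other way, from 644, 980, 584 and 1220 CPM to 282, 310 and 204 CPM. Neither gene's groups overlapped, and the log2 changes were 2.82 (adjusted p = 0.000475) and -1.69 (adjusted p = 0.00161) by edgeR. Lsm14a, a P-body protein, rose from 156 ± 62.2 to 817 ± 102 CPM. The storage factors Patl2 (73.7 ± 39 to 9.29 ± 0.442 CPM) and Zar1l (649 ± 121 to 76.4 ± 55.1 CPM) fell, whereas Zar1 was at 290 ± 162 and 278 ± 80.7 CPM and did not pass.

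Zona pellucida genes, which encode the egg coat, fell. Zp3 was at 3820, 5930, 3120 and 7250 CPM in GV and at 418, 475 and 137 CPM in ovulated CKO oocytes, a log2 change of -3.87 (SE 0.529, edgeR adjusted p = 0.000262). Zp1 fell from 1800 ± 843 to 117 ± 53.5 CPM and Zp2 from 4960 ± 2530 to 295 ± 189 CPM. In the list of zona and secreted factors 10 of 23 fell and none rose, against 8 that fell and 5 that rose with library totals. The growth factor Bmp15 fell from 4480 ± 1920 to 1780 ± 373 CPM, Gdf9 passed narrowly with overlapping groups (edgeR adjusted p = 0.0487, and not with library totals or without GV replicate 2 or 4 or ovulated replicate 1 or 2, where it was 0.09 to 0.116), and the secreted protein Oosp1 was at 2880 ± 947 and 2940 ± 982 CPM.

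Of 49 maternal-effect genes 14 rose and 14 fell (28.6% each), near the 29% and 28.4% of all genes. Their median was -0.17, and 0.35 with library totals, against 0.47 for all genes with that scaling. With library totals 20 rose and 12 fell. The subcortical maternal complex lies under the egg membrane, and not all of its members are named here. Of those named, Padi6 (5480 ± 3090 to 389 ± 242 CPM), Ooep (4450 ± 1860 to 617 ± 130 CPM), Tle6 (2580 ± 1650 to 273 ± 179 CPM) and Nlrp5 (1310 ± 571 to 419 ± 193 CPM, overlapping) fell. Khdc3 fell too, but did not pass with library totals (edgeR adjusted p = 0.128) or without GV replicate 1 (0.0709) or 4 (0.0921). Among chromatin regulators of the list, the histone demethylase Kdm1a rose from 19.5 ± 11.7 to 121 ± 12.7 CPM, the histone methyltransferase Setd2 from 42.3 ± 12.6 to 178 ± 16 CPM, and the imprint-protecting corepressor Trim28 from 51.7 ± 23.9 to 273 ± 69.6 CPM. The DNA demethylase Tet3 was at 506, 324, 155 and 164 CPM in GV and at 906, 1150 and 1280 CPM in ovulated oocytes, with no overlap.

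Of 24 oocyte transcription factors, 9 rose and 7 fell, with a median of -0.18. With library totals 11 rose and 4 fell, with a median of 0.29 against 0.47 for all genes. Nobox, a homeobox factor of oocyte growth, was at 433, 951, 683 and 1580 CPM in GV and at 105, 157 and 62.3 CPM in ovulated oocytes. Foxo3, a guardian of the follicle reserve, rose from 107 ± 25.6 to 329 ± 23.3 CPM and the heat shock factor Hsf1 from 30.6 ± 3.34 to 93.1 ± 19.5 CPM. Genes of zygotic genome activation were low and fell in 11 of 17 cases, with 1 rise; Zscan4d, near-identical to its family members, was highest in GV replicate 3 at 92.3 CPM.

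Among genes of fertilisation 13 of 36 rose and 8 fell, and the number that rose was 8 when GV replicates 2 or 3 or ovulated replicates 2 or 3 were left out in turn. Itpr1, the receptor that releases calcium in the egg at fertilisation, was at 37.6, 24.3, 23.6 and 15.1 CPM in GV and at 100, 102 and 91.4 CPM in ovulated oocytes. The sperm receptor Izumo1r, known as Juno, fell from 303 ± 68 to 40 ± 13.2 CPM and the fusion protein Cd9 from 178 ± 52.7 to 19.9 ± 12.4 CPM.

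Transcripts of the respiratory chain fell, and they did so to very different depths in the 3 ovulated CKO libraries. Of 37 complex I genes 22 fell and 3 rose, with a median log2 change of -1.56. Their mean log2 CPM lay between 5.57 and 5.86 in the 4 GV libraries and was 5.04, 4.33 and 2.84 in ovulated replicates 1, 2 and 3. Ndufa9, an accessory subunit, was at 160, 186, 175 and 173 CPM in GV and at 20.9, 9.24 and 1.74 CPM in ovulated oocytes (log2 change -4.03, SE 0.654, edgeR adjusted p = 0.000543). Ndufs3, a core subunit, fell from 59.2 ± 7.74 to 15.2 ± 7.57 CPM. Ndufa4, now counted with cytochrome c oxidase, rose from 82.1 ± 12.3 to 181 ± 34.6 CPM. The list of complexes II to V with cytochrome c had 30 falls and no rise among 41 genes, with falls such as the ATP synthase gene Atp5o (158 ± 13.3 to 16.3 ± 11.7 CPM). Their level per library followed the same order, at 5.58, 4.93 and 3.7 in ovulated replicates 1 to 3.

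Mitochondrial ribosomal proteins fell in 54 of 78 cases and rose in 2, with a median of -1.63. Mrps25, a small-subunit protein, was at 296, 263, 173 and 293 CPM in GV and at 35.8, 25.1 and 21.5 CPM in ovulated oocytes. Mrps14 was a member that rose, from 74.3 ± 14.7 to 189 ± 22.5 CPM. Import genes fell in 22 of 41 cases and rose in 7: Timm50, a receptor of the inner membrane translocase, fell from 37.7 ± 7.62 to 1.64 ± 1.01 CPM, while Romo1, a small inner membrane protein, rose from 25.5 ± 4.7 to 136 ± 30.5 CPM and the fusion protein Mfn1 from 46.3 ± 10.9 to 121 ± 13.8 CPM. Of 34 genes of mitochondrial DNA upkeep and expression, 17 fell and 6 rose. Polrmt, the mitochondrial RNA polymerase, was at 21, 15.8, 16.4 and 22.2 CPM in GV and at 2.87, 1.7 and 1.4 CPM in ovulated oocytes, whereas the nuclease-helicase Dna2 rose from 10.7 ± 1.99 to 43.7 ± 5.13 CPM.

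Among 38 genes of mitochondrial proteases, chaperones and stress signalling, the family of CLPX itself, 16 fell and 7 rose (4 without ovulated replicate 3). Trap1, a mitochondrial chaperone of the HSP90 family, was at 52.2, 60.4, 76.5 and 103 CPM in GV and at 8.65, 7.74 and 8.17 CPM in ovulated oocytes. The prohibitin Phb fell from 126 ± 20.1 to 25.6 ± 2.54 CPM and the cochaperonin Hspe1 from 152 ± 16.7 to 74.9 ± 19.3 CPM, a fall that did not pass with library totals (edgeR adjusted p = 0.188). Its partner Hspd1 (62.1 ± 19.6 and 73.8 ± 1.71 CPM), the chaperone Hspa9 (153 ± 76.6 and 152 ± 37.2 CPM) and the protease Lonp1 (22 ± 7.9 and 10.8 ± 5.29 CPM) did not pass.

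With library totals these mitochondrial lists had fewer falls, and the medians of all 6 stayed below 0. Falls still outnumbered rises for complex I (13 fell and 3 rose), complexes II to V (21 and 2) and mitochondrial ribosomal proteins (34 and 5). Falls and rises were nearly equal for import (10 fell and 10 rose), mitochondrial DNA upkeep and expression (10 and 9) and mitochondrial proteases and chaperones (10 and 11). Among all 12473 genes, 2127 fell and 4470 rose with this scaling. The medians for import, DNA upkeep and proteases were -0.64, -0.51 and -0.25, against 0.47 for all genes. Without ovulated CKO replicate 3 the falls numbered 22, 31, 54 and 25 for complex I, complexes II to V, mitochondrial ribosomal proteins and import. Their medians without it were -1.14, -1.35, -1.41 and -1.11, against -1.56, -1.64, -1.63 and -1.19 with it.

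Cytosolic ribosomal protein genes were the list with the lowest median: 75 of 83 fell and 1 rose, with a median log2 change of -2.48. Rplp0, a stalk protein, was at 422, 437, 301 and 534 CPM in GV and at 51.3, 39.9 and 39.8 CPM in ovulated oocytes (log2 change -3.28, SE 0.296, edgeR adjusted p = 0.000117). Rpl4 fell from 456 ± 110 to 63.7 ± 12.1 CPM. The gene that rose, Rps27l, is a paralogue of Rps27 induced by p53, and it went from 135 ± 26.8 to 440 ± 125 CPM. The mean log2 CPM of the list was 6.23 to 6.69 in GV and 4.94, 4.16 and 2.88 in ovulated replicates 1, 2 and 3, again lowest in replicate 3. Many ribosomal, tubulin, actin and Zscan4 genes have near-identical copies, and how the counting split reads among copies is not given in the sources used here.

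**Figure D4:**
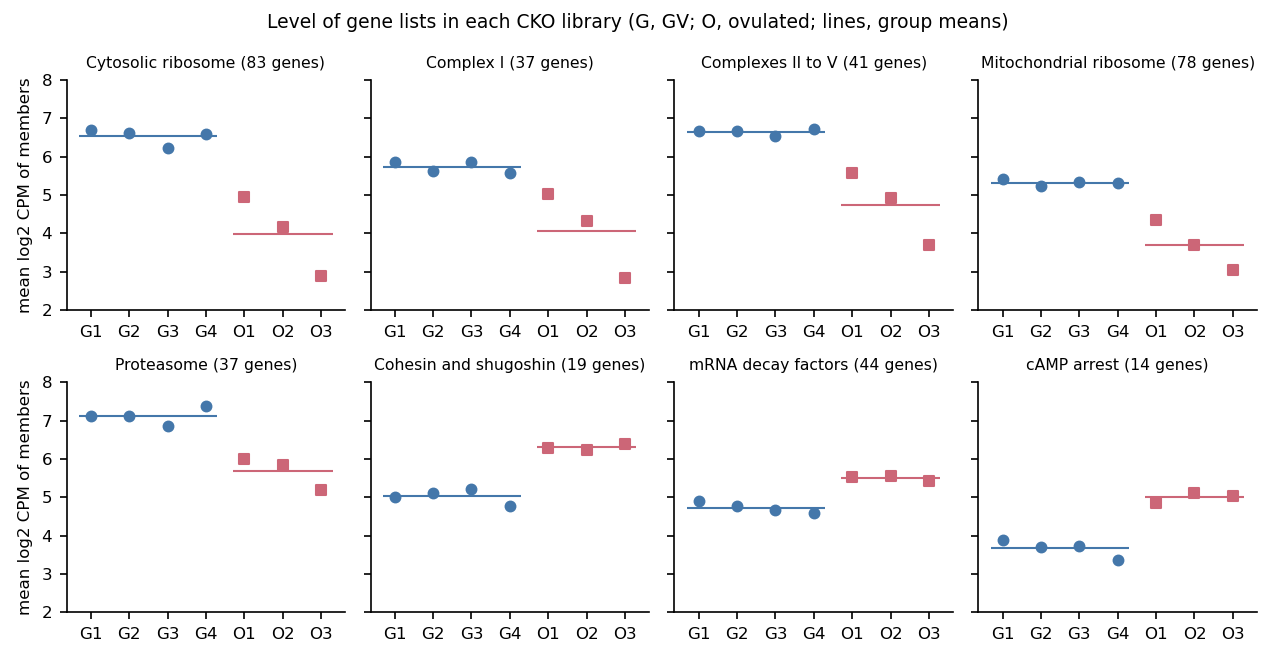
Mean log2 CPM of the tested members of 8 gene lists in each CKO library (circles, 4 GV; squares, 3 ovulated; lines, group means). Among the 3 ovulated libraries, ribosomal and respiratory lists are highest in replicate 1 and lowest in replicate 3, whereas the cohesin, decay and cAMP lists lie close together.

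Translation factors fell in 25 of 49 cases and rose in 10, with a median of -1.09. Subunits of eIF3 and eIF2B fell, such as Eif3h (105 ± 15.8 to 11 ± 3.47 CPM) and Eif2b2 (35.1 ± 8.81 to 2.11 ± 0.713 CPM). The GTPase Eif5b rose from 84 ± 34.4 to 335 ± 32.3 CPM and Eif4g2, a scaffold of initiation without eIF4E, from 150 ± 42.6 to 512 ± 45.7 CPM. Proteasome subunits fell in 25 of 37 cases and rose in 4 (2 without ovulated replicate 2). Psmc2, an ATPase of the proteasome cap, was at 265, 303, 231 and 292 CPM in GV and at 13, 11.1 and 6.3 CPM in ovulated oocytes. Psme4, the alternative activator PA200, went from 142, 95.7, 104 and 35 CPM up to 497, 516 and 530 CPM. Splicing factors were mixed, with 19 of 55 rising and 12 falling, 12 rising without GV replicate 3, and 25 rising and 7 falling with library totals: Snrpd3 rose from 24.2 ± 7.51 to 95.8 ± 16.6 CPM and Snrpa fell from 43.3 ± 4.64 to 9.47 ± 0.866 CPM.

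Among metabolic lists, falls well outnumbered rises under both scalings for glycolysis and the pentose phosphate pathway. Of its 24 genes 14 fell and 5 rose (3 without ovulated replicate 2), with a median of -1.77, and 13 fell and 5 rose with library totals. G6pdx, the entry enzyme of the pentose phosphate pathway, was at 610, 1190, 628 and 1490 CPM in GV and at 45.6, 39.4 and 49 CPM in ovulated oocytes, while Rpia, a later enzyme of the same pathway, rose as given above. Aldoa fell from 94.6 ± 19.8 to 3.92 ± 2.03 CPM. Of 45 genes of pyruvate oxidation, the tricarboxylic acid cycle and fatty acid oxidation, 16 fell and 7 rose, the latter count being 2 without ovulated replicate 3, 3 without GV replicate 2 and 4 without GV replicate 1, 3 or 4 or ovulated replicate 1. With library totals 11 fell and 10 rose. Fh1, fumarate hydratase, fell from 120 ± 19.6 to 28.5 ± 9.06 CPM, and the fatty acid oxidation gene Acadm rose from 33.7 ± 5.19 to 84.1 ± 25.5 CPM.

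In heme and iron-sulfur cluster synthesis, a pathway that CLPX is known to control through the enzyme encoded by Alas1, 10 of 30 genes fell and 6 rose (3 without GV replicate 2 or ovulated replicate 1). With library totals 7 fell and 9 rose. Alas1 was at 32.2, 44.6, 73.4 and 62.7 CPM in GV and at 44.5, 44.9 and 43.8 CPM in ovulated oocytes, within the GV range. The next enzymes Alad (16.6 ± 2.47 to 0.857 ± 0.579 CPM) and Urod (72.3 ± 12.6 to 12.6 ± 1.79 CPM) fell, and Cpox rose from 26.1 ± 6.92 to 69.3 ± 3.31 CPM. Antioxidant genes fell in 14 of 33 cases and rose in 6 (3 without GV replicate 4), against 8 and 8 with library totals, with Gpx4, the lipid peroxide reductase, falling from 45.7 ± 8.7 to 2.25 ± 1.44 CPM and Gclc, which limits glutathione synthesis, rising from 2.45 ± 1.36 to 12.7 ± 2.29 CPM. Mt1, a metallothionein, was at 118, 117, 113 and 88 CPM and then at 84.2, 53.8 and 23.6 CPM. It passed with an edgeR adjusted p of 0.0348 but not with library totals (0.32) or without GV replicate 1 (0.0679), GV replicate 2 (0.0725) or ovulated replicate 2 (0.0606). Nor did Mt1 pass in the edgeR fit of 14 libraries (adjusted p = 0.0979) or in edgeR's test above 1.5-fold (0.103). With limma on log2(FPKM + 1) the adjusted p was 0.152.

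Genes of the integrated stress response went both ways, with 13 of 32 rising (40.6%) and 10 falling (31.2%), or 19 and 7 with library totals. Atf4, its central transcription factor, was at 140, 158, 65.1 and 250 CPM in GV and at 19.5, 42.9 and 22.2 CPM in ovulated oocytes, a log2 change of -2.44 (edgeR adjusted p = 0.00113). Ddit3, which encodes CHOP, fell from 50 ± 7.76 to 13.4 ± 11.2 CPM and the serine synthesis gene Phgdh from 17.8 ± 5.83 to 0.87 ± 0.708 CPM. The kinase Eif2ak4, known as GCN2, rose from 25.6 ± 9.67 to 127 ± 12.1 CPM and Cebpg, a partner of ATF4, from 26.6 ± 4.96 to 106 ± 11.5 CPM.

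Autophagy genes split into 13 rises and 16 falls of 38 (14 and 8 with library totals), with the initiating kinase Ulk1 rising from 12.6 ± 2.11 to 55.3 ± 11.5 CPM and its partner Atg13 falling from 14.3 ± 1.82 to 1.99 ± 1.02 CPM. Of 31 apoptosis genes 10 rose and 4 fell, or 12 and 0 with library totals. Apaf1, the scaffold of the apoptosome, rose from 2.27 ± 1.03 to 10.4 ± 1.87 CPM, and the pro-death gene Bcl2l11 rose from 6.82 ± 2.98 to 25.4 ± 8.7 CPM beside the survival gene Bcl2l2. DNA repair genes rose in 12 and fell in 15 of 42 cases, or in 16 and 8 with library totals: the end-joining ligase Lig4 rose from 17.4 ± 3.33 to 65.9 ± 9.39 CPM, whereas Xrcc5 (184 ± 37.6 to 30.1 ± 11.3 CPM) and Xrcc6 (81.2 ± 14.1 to 11.8 ± 3.47 CPM), which encode the Ku proteins of the same repair pathway, fell. The medians of the apoptosis and repair lists were -0.04 and -0.2. With library totals they were 0.47 and 0.29, against 0.47 for all genes. The apoptosis median was 0.06, 0.06 and 0.01 without GV replicate 2, GV replicate 3 and ovulated replicate 1. In the histone list 4 of 22 rose (2 without ovulated replicate 1) and 6 fell (3 without ovulated replicate 2), against 5 and 2 with library totals, the linker histone H1f0 rising from 9.89 ± 2.9 to 36.1 ± 2.03 CPM.

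Markers of other ovarian cells were low. The 11 of 29 granulosa and cumulus markers that passed the filter on low counts summed to 203 to 217 CPM in GV and to 132 to 167 CPM in ovulated libraries, most of it from Esr2 (151 ± 12.3 to 56.2 ± 12.5 CPM). Of these 11, 2 rose and 3 fell. Inha, a defining granulosa marker, was at or below 2.16 CPM in every library, and Star at or below 1.21 CPM. Greb1 rose from 1.37 ± 0.771 to 8.34 ± 2.33 CPM. The 5 of 22 theca, stromal, endothelial and blood markers that passed the filter summed to 26.3 to 47.7 CPM in GV and to 63.3 to 86.8 CPM in ovulated libraries, most of it from Pecam1 (30.2 ± 8.58 to 63.3 ± 9.55 CPM). Their part in the stage change was not tested. All 14 oocyte markers were tested and together held 29400 to 69700 CPM in GV and 18900 to 23400 CPM in ovulated libraries, so oocyte transcripts were abundant in every CKO library.

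Whether the stage change of CKO oocytes differed from that of WT oocytes was tested as an interaction in a fit of all 14 libraries. Of 13158 genes tested, 1 passed (0.0076%), while 1205 had an unadjusted p below 0.05 (9.16%, against 658 at the nominal rate). DESeq2 called 64 and limma-voom none. Over genes, the log2 changes of CKO and WT oocytes correlated at a Pearson r of 0.872, as a description across genes that share libraries and scaling. The spread of changes was smaller in CKO, with an SD of 1.64 against 2.02 in WT. That spread was not tested, and it covers genes with few reads in ovulated WT libraries, whose folds are imprecise. In this fit 3494 genes fell in both genotypes, 3041 rose in both, and 1 was called in opposite directions.

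The gene that passed was Tti2, which encodes a cochaperone subunit that stabilises PI3K-like kinases such as mTOR and ATM. On the scale of this fit it was at 1.78, 3.02, 2.94 and 5.86 CPM in GV CKO and at 1.33, 1.1 and 0.74 CPM in ovulated CKO libraries. In WT it was at 5.26, 3.49, 4.64 and 3.37 CPM in GV and at 0, 0 and 0.0338 CPM in ovulated oocytes. The log2 difference, CKO minus WT, was 6.41 with an SE of 0.904 (edgeR adjusted p = 0.0254). It depends on the prior count, since the 3 ovulated WT libraries held 1 read of Tti2 and the 3 ovulated CKO libraries 105. Their ratio was 98.2 with a 95% exact interval of 17.2 to 3920 that covers counting error only. The call was lost with limma-voom (adjusted p = 0.241), with a replicate block (0.154) and when any single library was left out (0.0515 to 0.115), except GV CKO replicate 4 (0.00862), ovulated WT replicate 3 (0.0444) or ovulated CKO replicate 3 (0.00107).

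The next genes by p-value did not pass. Dcpp3, Trpv2, Tsacc and Yipf1 fell less in CKO than in WT, by log2 differences of 5.47, 4.63, 3.62 and 3.33. For Yipf1, a Golgi membrane protein, ovulated CKO libraries were at 28.5, 33.6 and 3.06 CPM and ovulated WT libraries at 1.95, 1.72 and 2.67 CPM, so that CKO replicates 1 and 2 were above WT and replicate 3 was near it. Gm20594, a predicted gene, differed by -2.35: it was at 138, 219, 108 and 140 CPM in GV CKO against 13.2 to 20.5 CPM in GV WT libraries, and at 260, 157 and 414 CPM in ovulated CKO against 135, 230 and 133 CPM in ovulated WT libraries.

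**Figure D5:**
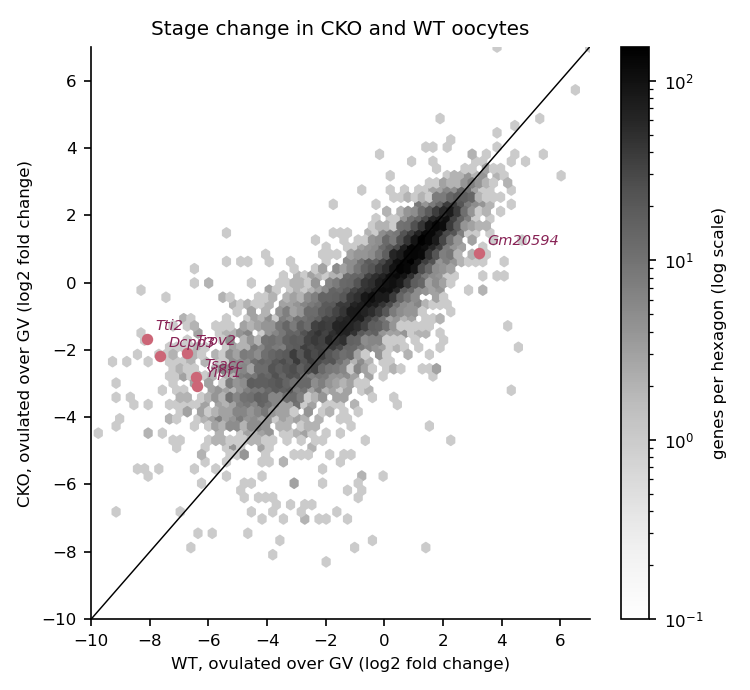
Log2 fold change from GV to ovulated oocytes in CKO (vertical) against WT (horizontal) for 13158 genes in the fit of 14 libraries, as hexagons shaded by the number of genes on a log scale, with the line of equal change. The 6 genes with the smallest interaction p are in red: 5 lie above the line among genes that fell in WT, and Gm20594 lies below it.

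The count of this comparison rested on ovulated CKO replicate 3. Without it 498 genes passed (3.68% of 13521 tested), of which 489 had a CKO change above that in WT and 455 of those had a log2 change below 0 in both genotypes. The 489 genes were chosen by this difference in the same libraries, which fixes its direction. Their median log2 change was -4.19 in WT and -1.61 in CKO. They included 13 of 37 complex I genes, among them Ndufa9 and Ndufs7, 9 of 41 in the list of complexes II to V, 9 of 78 mitochondrial ribosomal proteins, 5 of 83 cytosolic ribosomal proteins and the zona gene Zp3. With the omission of any other library between 0 and 2 genes passed.

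The level of the complex I list shows the spread behind this. On the scale of the 14 libraries its mean log2 CPM was 2.28, 3.47 and 2.98 in ovulated WT libraries and 5.06, 4.25 and 2.82 in ovulated CKO libraries, after 5.68 (mean of GV WT) and 5.8 (mean of GV CKO). CKO replicates 1 and 2 were above the WT range and replicate 3 was inside it. The same order was seen for complexes II to V, at 3.17, 4.33 and 4.14 in ovulated WT and 5.6, 4.85 and 3.69 in ovulated CKO libraries, and for the proteasome, at 5.12, 5.43 and 5.5 against 6.04, 5.77 and 5.18. For cohesin, ovulated WT libraries were at 6.41, 6.22 and 6.15 and ovulated CKO libraries at 6.31, 6.16 and 6.38, with overlapping ranges. The labels do not say how the 3 ovulated CKO libraries differ, and a cause was not tested.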

How the data were processed

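SMART-Seq2 libraries of mouse oocytes were compared. The authors deposited, per stage, estimated counts (14.4 to 16.3% of values fractional) and FPKM values scaled to gene length and depth; mm10 is named in the submitters' processing notes, and the aligner and counter are not given in the sources used here. Columns were matched to samples by the labels. No CKO library was a copy of another of its stage (chi-square per degree of freedom at least 71.8 in each pair). Pairs of WT libraries were not compared. Labels do not say that replicates came from separate animals, so p-values measure the spread between these samples, which may be technical.

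Genes listed in both tables (16417) were joined by gene ID. Counts were rounded and tested with edgeR 4.0.16 in R 4.3.3 (TMM, filterByExpr minimum count 10, robust quasi-likelihood F-test, Benjamini-Hochberg adjustment, threshold 0.05) on the 7 CKO libraries; WT changes and the interaction came from all 14. The test was checked on simulated data. Alternatives were RLE factors, library totals, other count filters, DESeq2 1.42.0, limma-voom and limma-trend on log2(FPKM + 1) (limma 3.58.1), a fold threshold, a replicate block and omission of each library. Intervals on reads reflect counting error alone: amplified reads were not collapsed by molecular identifiers. 3′ UTRs came from GENCODE M21 and gene positions from RefSeq GRCm38.p6 (12445 of 12473 genes found).

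Members, lists and rules were chosen with earlier results of these data known. Named genes are Clpx, Clpp, Mt1, the 15 largest changes per direction (passed, at least 10 CPM, no overlap, no predicted genes), up to 3 members per list and direction with the smallest p, and the smallest interaction p-values; further list members were named after their values were seen. Sums over markers use the genes tested.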

Additional observations from a re-analysis of the deposited data

Results flagged for a closer look

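In groups of 4, a GV CKO library lay far from the other 3 relative to the range of the group in 13 of 211 named genes (6.16%), and chance alone marks about 1 in 20. GV CKO replicate 1 was the highest for Lbx1 (2.62 CPM), Socs7 (36.1 CPM), Psme3 (120 CPM), Lsm11 (16.1 CPM), Bcl2l11 (11.3 CPM) and Msh6 (85.9 CPM), all of which rose. GV CKO replicate 4 was the highest for Upp1 (673 CPM), Trim14 (49.1 CPM) and Ccnd3 (14 CPM) and the lowest for Kif2a (37.2 CPM). GV CKO replicate 3 was the highest for Anapc10 (59.2 CPM), Anapc15 (174 CPM) and Zscan4d (92.3 CPM).

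The stage change of Tti2 differed between CKO and WT oocytes, with a log2 difference of 6.41 by the test of the difference itself (edgeR adjusted p = 0.0254). The call was lost with limma-voom (0.241), with a replicate block (0.154) and in most omissions of a single library, so it is not a firm one.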

How the results depend on the processing

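The number of genes that fell moved from 3539 to 2127 with library totals; under the other alternatives both counts stayed within 1.5 times, and omission of single libraries gave 2905 to 3412 rises and 3085 to 3662 falls. Without ovulated CKO replicate 3 and GV CKO replicate 4 together, an alternative chosen after seeing the data, 3248 rose and 3123 fell. Replicate numbers did not pair the stages (correlations of same-numbered deviations from -0.0629 to 0.0663 in CKO), and with a replicate block 3011 rose, 3019 fell and 0 genes passed the interaction. The interaction count was 64 with DESeq2, 0 with limma-voom, and 0 to 498 with single libraries left out. The difference in genes detected was -25.2 at 10 or more counts (exact permutation p = 0.971), -605 after thinning and -763 to -492 with single libraries left out. Lists with a median above 0 numbered 10 to 12 when single libraries were left out. Of 211 named genes, 10 lost their call with library totals, 10 with a replicate block and 13 in the test above 1.5-fold. None changed direction under any alternative run. Most named genes were picked by size of change or p-value in these same libraries, so this does not speak for all genes tested. The causes were not tested. For Tti2 the 3 ovulated WT libraries held 1 read in all, so its fold carries the wide counting interval of 17.2 to 3920.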

Other observations

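Genes listed in a single table were outside the comparison. The GV table alone listed 1659 genes, of which 8 had a mean of at least 10 counts in the GV CKO libraries; Gm3183 led with a mean of 99.3 counts (21.4 to 212), and Slc6a16 had 17 to 30 counts. The ovulated table alone listed 486 genes, of which 3 had a mean of at least 10 counts in the ovulated CKO libraries: Asdurf (25.7), Entpd4 (18.3) and Tnfaip6 (16), each with 0 in at least 1 library. Tnfaip6 is known as a cumulus matrix gene.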
